A study of Homo sapiens with 15 samples.

Results

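The proteasome genes, 46 of the 16109 genes listed in the expression tables, were followed in the prostate cancer line PC3 and the B cell line P493-6 after MYCi975, an inhibitor of MYC, and in P493-6 after tetracycline. The members are the protein-coding genes whose symbol begins with PSMA to PSMG and a number. All 46 were listed in P493-6 and 45 in PC3, where PSMB9 was not analysed here. One of them, PSMC3IP, carries the name but encodes a partner of the meiotic recombinases and is no part of the proteasome, which leaves 45 proteasome genes. PSMA8, PSMB3 and PSMB11 were not analysed here. By role the 45 are 7 alpha and 6 beta genes of the constitutive core, 6 ATPase and 11 non-ATPase genes of the regulatory particle, 3 immunoproteasome genes, 3 chaperones of the regulatory particle, 4 activators, and 5 genes for assembly factors and an inhibitor.

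Each of the 5 groups had 3 libraries of total RNA, 15 in all, taken after 24 h. PC3 cells received MYCi975 at 8 µM in DMSO, and their controls DMSO alone. P493-6 cells, whose labels give Burkitt lymphoma and overexpressed c-MYC, received MYCi975 at 6 µM in DMSO, tetracycline at 0.1 µg/ml in water, or DMSO as control, so the vehicle of tetracycline was not that of its control. In P493-6 tetracycline switches off an introduced MYC gene, and all P493-6 groups carry that construct. The medium was RPMI with 10% FBS and antibiotics throughout. Separate cultures are not stated for libraries of the same group, so the p-values reflect library-to-library spread that may be only technical. Values are CPM, reads of a gene scaled to a common library total. A CPM is a share of a library and does not show a change in RNA per cell, and in such bulk samples fewer cells of a kind and less RNA per cell cannot be told apart.

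The proteasome is the protease that destroys proteins tagged with ubiquitin. Its core is a barrel of alpha and beta rings, in which PSMB5, PSMB6 and PSMB7 carry the active sites, and the regulatory particle of PSMC ATPases and PSMD subunits recognises, unfolds and feeds in the substrate. In cells of the immune system, and elsewhere after interferon gamma, PSMB8, PSMB9 and PSMB10 replace PSMB5, PSMB6 and PSMB7 to form the immunoproteasome, which favours peptides suited to MHC class I. PSME1 and PSME2 form the interferon-induced activator cap, PSME3 a nuclear cap and PSME4 a further cap. PSMG1 to PSMG4 are chaperones that build the core, with POMP, and PSMF1 is an inhibitor of the core. NFE2L1, a transcription factor, drives proteasome genes when proteasome activity is short, through antioxidant response elements.

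Promoter windows are shown for 8 genes, the 3 immunoproteasome genes, the 3 activators that were called with tetracycline, and PSMG1 and PSMG4, the 2 members with the largest falls. Each runs from 250 bases before to 50 bases after the start of transcription, 5′ to 3′ on the strand of the gene, and was taken from RefSeq on GRCh38.p14. Of the 45 genes 39 had at least 1 window. Capitals mark matches on either strand to the E-box CACGTG, which MYC binds, to GAAA followed by any 2 bases and GAAA, a form of the interferon-stimulated response element bound by interferon regulatory factors, to TTCNNNGAA, the gamma-activated site, and to TGACNNNGC, the antioxidant response element. No matches to different motifs overlapped in any of the proteasome windows. The windows lie at chr6:32843998-32844297 on the minus strand (PSMB8, of 2 windows the one at its later start), chr6:32853942-32854241 on the plus strand (PSMB9), chr16:67936801-67937100 on the minus strand (PSMB10), chr14:24135944-24136243 on the plus strand (PSME1), chr14:24146561-24146860 on the minus strand (PSME2), chr17:42833147-42833446 on the plus strand (PSME3), chr21:39183402-39183701 on the minus strand (PSMG1) and chr6:3258697-3258996 on the plus strand (PSMG4).
PSMB8: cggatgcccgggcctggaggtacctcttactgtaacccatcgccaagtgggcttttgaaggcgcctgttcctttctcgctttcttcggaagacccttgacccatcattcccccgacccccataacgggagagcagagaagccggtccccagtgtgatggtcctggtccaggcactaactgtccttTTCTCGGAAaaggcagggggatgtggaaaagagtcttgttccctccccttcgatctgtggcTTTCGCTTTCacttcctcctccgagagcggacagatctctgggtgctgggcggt
PSMB9: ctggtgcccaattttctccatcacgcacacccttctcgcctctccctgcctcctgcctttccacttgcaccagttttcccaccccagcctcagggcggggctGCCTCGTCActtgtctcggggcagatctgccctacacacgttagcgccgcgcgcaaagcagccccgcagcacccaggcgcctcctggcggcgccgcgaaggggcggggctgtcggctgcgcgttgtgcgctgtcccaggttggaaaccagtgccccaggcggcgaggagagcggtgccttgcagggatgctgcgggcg
PSMB10: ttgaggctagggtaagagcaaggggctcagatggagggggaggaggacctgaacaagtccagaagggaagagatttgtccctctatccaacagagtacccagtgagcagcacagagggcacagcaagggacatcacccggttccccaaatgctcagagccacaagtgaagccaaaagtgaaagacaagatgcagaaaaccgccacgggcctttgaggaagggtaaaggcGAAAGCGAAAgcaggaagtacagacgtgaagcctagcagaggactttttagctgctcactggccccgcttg
PSME1: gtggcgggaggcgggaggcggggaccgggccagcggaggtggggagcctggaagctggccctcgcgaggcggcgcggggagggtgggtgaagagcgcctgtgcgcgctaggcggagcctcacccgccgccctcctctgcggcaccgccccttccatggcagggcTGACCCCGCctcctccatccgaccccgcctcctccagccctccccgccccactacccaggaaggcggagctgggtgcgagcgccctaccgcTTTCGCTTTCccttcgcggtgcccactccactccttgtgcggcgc
PSME2: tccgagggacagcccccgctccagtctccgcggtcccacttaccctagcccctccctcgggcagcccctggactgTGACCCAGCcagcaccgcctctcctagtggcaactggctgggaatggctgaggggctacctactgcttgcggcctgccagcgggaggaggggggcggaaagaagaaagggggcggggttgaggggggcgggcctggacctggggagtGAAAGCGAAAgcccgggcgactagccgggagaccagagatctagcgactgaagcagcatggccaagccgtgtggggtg
PSME3: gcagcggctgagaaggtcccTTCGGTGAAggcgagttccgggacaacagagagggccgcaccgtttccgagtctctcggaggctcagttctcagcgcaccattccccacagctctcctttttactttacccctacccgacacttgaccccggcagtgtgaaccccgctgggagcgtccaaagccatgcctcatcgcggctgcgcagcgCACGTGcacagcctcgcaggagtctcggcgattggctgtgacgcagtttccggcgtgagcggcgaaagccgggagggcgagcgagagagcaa
PSMG1: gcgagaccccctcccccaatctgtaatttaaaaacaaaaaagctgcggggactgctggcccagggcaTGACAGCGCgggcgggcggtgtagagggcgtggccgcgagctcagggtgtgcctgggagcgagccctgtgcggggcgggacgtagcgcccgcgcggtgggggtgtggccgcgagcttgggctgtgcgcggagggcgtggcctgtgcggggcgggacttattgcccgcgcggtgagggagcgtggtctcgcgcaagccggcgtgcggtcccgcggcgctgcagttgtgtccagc
PSMG4: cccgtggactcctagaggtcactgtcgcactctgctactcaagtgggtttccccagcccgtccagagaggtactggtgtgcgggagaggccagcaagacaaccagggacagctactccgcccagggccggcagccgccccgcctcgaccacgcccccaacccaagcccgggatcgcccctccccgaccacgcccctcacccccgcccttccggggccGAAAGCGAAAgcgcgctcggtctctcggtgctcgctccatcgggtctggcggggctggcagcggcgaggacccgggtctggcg
Shares are over genes with at least 1 window, since a gene with several windows has more chances of a match. The interferon-stimulated element stood in 4.38% of all 27305 genes. Among the 3 immunoproteasome genes it was found in PSMB8, with its first base 4 bases before the start, and in PSMB10, 21 bases before it, but not in the windows of PSMB9. Among the activators it was found in PSME1, 6 bases after the start, and in PSME2, 28 bases before it. It was also found in PSMG4, PSMB4 and PSMA4, so it was held by genes that rose and by genes that fell with tetracycline. The E-box stood in 8.77% of all genes, in PSME3, 42 bases before the start, in PSMD9, and in 0 of the 25 constitutive genes that had a window. The antioxidant response element stood in 16.1% of all genes and in 14 of the 39 proteasome genes, PSMB9, PSME1, PSME2 and PSMG1 among them. The gamma-activated site stood in 9.38% of all genes and in 7 of the 39 proteasome genes, PSMB8 and PSME3 among them. A match is a description of letters and not of binding.

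The targeted gene was checked first. MYC had 378, 359 and 386 CPM in PC3 with MYCi975, against 301, 300.4 and 309 CPM in PC3 controls. In P493-6 it had 5138, 5084 and 5132 CPM with MYCi975 and 152, 145 and 149.8 CPM with tetracycline, against 4692, 4701 and 4791 CPM in controls. MYC RNA was therefore low with tetracycline. With MYCi975 it was not low in either line, and every treated library lay above every control library of its line. MYC protein and its activity were not measured, so these RNA values do not show whether MYCi975 acted on MYC. All 7 B cell markers were listed in P493-6, where their summed level was 1886 to 1940 CPM with MYCi975 and 5123 to 5159 CPM with tetracycline, against 1725 to 1790 CPM in controls. Of 8 epithelial markers 7 were listed in PC3, with a sum of 1474 to 1588 CPM with MYCi975, against 1618 to 1656 CPM in PC3 controls, and KLK3 was not analysed here. The sum holds opposite changes. KRT7 had 330 to 356 CPM with MYCi975, against 203 to 211 CPM in PC3 controls. KRT18 had 280 to 297 CPM, against 385 to 400 CPM, and KRT19 491 to 534 CPM, against 617 to 641 CPM. T cell and macrophage markers were low in P493-6, with 2 of 3 T cell markers summing to 9.41 to 12.1 CPM with tetracycline, against 3.93 to 5.72 CPM in controls, and 1 of 3 macrophage markers, CD68, at 1.72 to 3.21 CPM with tetracycline, against 0 to 0.409 CPM in controls. CD68, and CD2 in the T cell sum, passed the filter on low values only through the tetracycline libraries, so they had to be higher there. Plasma cell markers summed to 80.2 to 90.1 CPM with tetracycline, against 202 to 208 CPM in controls, most of it XBP1, while PRDM1 of the same list had 17.4 to 19.4 CPM with tetracycline, against 10.3 to 11.97 CPM in controls. The epithelial marker EPCAM had 0.808 to 2.64 CPM with tetracycline, against 10.7 to 11.9 CPM in P493-6 controls. The fibroblast marker COL1A1 had 6.98 to 8.69 CPM, against 1.13 to 2.52 CPM. In PC3, COL1A1 had 54.1 to 56.7 CPM with MYCi975, against 63.7 to 65.7 CPM in controls. XBP1 had 151 to 165 CPM there with MYCi975, against 58.3 to 66.4 CPM in controls. The part of these differences in the proteasome results was not tested.

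Most proteasome genes were lower with tetracycline and with MYCi975. Those called higher were PSMB8 in PC3 and PSME1 in P493-6 with MYCi975, and PSMB8, PSMB9, PSMB10, PSME1 and PSME2 with tetracycline. A gene was called at an adjusted p below 0.05, two-sided, from limma, fitted on log2(CPM + 1) and adjusted by Benjamini-Hochberg across every gene tested. Counts of members here and below include PSMC3IP, which was called lower with MYCi975 in both lines and with tetracycline. In PC3 with MYCi975, 33 of the 45 members measured were called lower and 1 higher, where 59.2% of all genes were called, 30.1% lower and 29% higher. In P493-6 with MYCi975, 26 of 46 members were called lower and 1 higher, where 28.6% of all genes were called, 18% lower and 10.6% higher. That split of all genes is sensitive to the scaling: it was 1375 higher and 2338 lower with CPM, and 1819 higher and 1690 lower with TMM scaling, under which 24 members were lower and 1 higher. With tetracycline, 40 of 46 members were called lower and 5 higher, where 78.1% of all genes were called, 41.9% lower and 36.2% higher. The median log2 fold change of the members with MYCi975 was -0.24 in PC3 and -0.19 in P493-6, and with tetracycline it was -0.75. Over all genes tested the medians were -0.0020, -0.042 and -0.050 in the same order. The authors' deposited marks come with a likelihood ratio and follow a stricter adjusted p, so their counts are not at the threshold used here. In PC3 with MYCi975, 1 member was marked higher and 31 lower, among 3457 and 3477 of all genes. In P493-6 with MYCi975 these were 1 and 22 members, among 1373 and 1236 of all genes. With tetracycline they were 6 and 39 members, among 4985 and 5032 of all genes.

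The 30 genes of the constitutive core and the regulatory particle were lower together. All 30 had a negative log2 fold change in each of the 3 comparisons with control, although not all of these passed the test. With MYCi975, 26 of them were called lower and 0 higher in PC3, where 30.1% of all genes were called lower. In P493-6, 22 were called lower and 0 higher, where 18% of all genes were called lower. With tetracycline all 30 were called lower, where 41.9% of all genes were. The 30 had a median log2 fold change of -0.82 and a range of -1.13 to -0.17. Their summed level was 4493 ± 51.6 CPM in PC3 with MYCi975 and 5699 ± 33.2 CPM in PC3 controls (SD, n = 3 each). In P493-6 it was 3473 ± 59.4 CPM with MYCi975 and 2307 ± 33.6 CPM with tetracycline, against 4111 ± 36.3 CPM in controls. None of these groups of 3 overlapped in their summed levels.

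**Figure D1:**
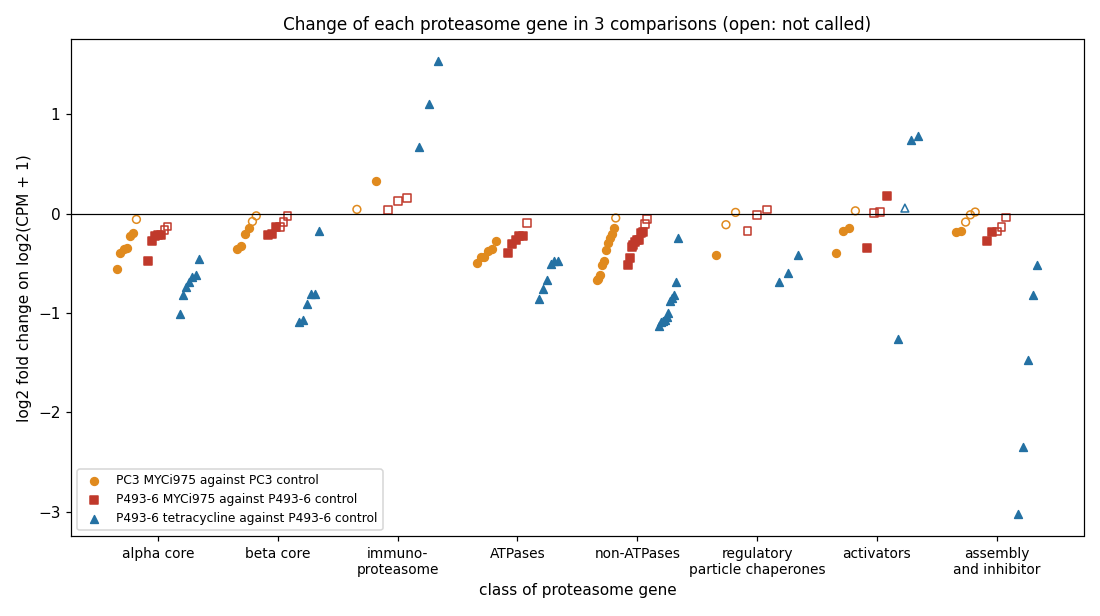
Log2 fold change on log2(CPM + 1) (vertical axis) of each proteasome gene by class (horizontal axis) for MYCi975 in PC3, MYCi975 in P493-6 and tetracycline, each against the control of that line. Filled points passed the test and open points did not. The constitutive classes lie below 0, down to -1.13 with tetracycline, while the 3 immunoproteasome genes lie between 0.67 and 1.53 with tetracycline, and PSMG1 is lowest at -3.02.

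Among the alpha genes, which form the outer rings and the gate of the core, 6 of 7 were lower in PC3 with MYCi975, 5 of 7 in P493-6 with MYCi975 and 7 of 7 with tetracycline. Of all genes, 30.1%, 18% and 41.9% were lower in that order. PSMA7 had 248, 248 and 236 CPM in P493-6 with MYCi975 and 148, 146 and 142 CPM with tetracycline, against 287, 301 and 298 CPM in controls. The 3 groups did not overlap and stood in a graded order, lowest with tetracycline. The log2 fold change of PSMA7 was -0.27 with MYCi975 (SE 0.042, limma adjusted p = 1.24e-06) and -1.01 with tetracycline (SE 0.043, limma adjusted p = 3.18e-23). In PC3 the largest fall among alpha genes was that of PSMA4, with 97.3, 103 and 95.8 CPM with MYCi975, against 148, 152 and 137 CPM in controls. Its log2 fold change was -0.56 (SE 0.042, limma adjusted p = 9.34e-22). PSMA2, at 9.31 to 21.9 CPM over all libraries, fell in all 3 comparisons, and pseudogenes carry its name. PSMA1 was called only with tetracycline, at 37.9, 37.9 and 33.9 CPM with tetracycline, against 56.6, 57.4 and 57.8 CPM in controls.

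Of the 6 constitutive beta genes, 4 were lower in PC3 with MYCi975, 3 in P493-6 with MYCi975 and 6 with tetracycline. The shares of all genes called lower were 30.1%, 18% and 41.9% in that order. PSMB1 and PSMB2, which carry no active site and have no immune replacement, were lower in all 3 comparisons. PSMB2 had 85.1, 84.9 and 82.6 CPM in PC3 with MYCi975, against 106, 104 and 114 CPM in PC3 controls. In P493-6 it had 126, 121 and 124 CPM with MYCi975 and 80.3, 73.0 and 74.5 CPM with tetracycline, against 149.9, 142 and 139 CPM in controls. Every treated library lay below every control library. PSMB4, another beta gene without an active site, had the smallest change of the class, with a log2 fold change of -0.17 with tetracycline (limma adjusted p = 0.0065). That call was lost without control replicate 2, at an adjusted p of 0.0587, and under TMM scaling, at 0.129. PSMB6 in P493-6 with MYCi975 was called at -0.14 (limma adjusted p = 0.0335), and 10 of the alternatives tried ended that call, among them those without control replicate 2 (adjusted p = 0.191) or 3 (0.0711) and without MYCi975 replicate 1 (0.0843) or 2 (0.0824).

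The immunoproteasome genes and the active subunits they replace went opposite ways with tetracycline. All 3 immunoproteasome genes rose and all 3 counterparts fell. PSMB9, which replaces PSMB6, had 31.6, 32.8 and 29.6 CPM in P493-6 with MYCi975 and 85.6, 86.1 and 76.6 CPM with tetracycline, against 28.1, 26.3 and 29.5 CPM in controls. Every library with tetracycline exceeded every control library, and the log2 fold change was 1.53 (SE 0.071, limma adjusted p = 4.17e-22). PSMB6 had 101, 101 and 102 CPM with MYCi975 and 52.3, 52.7 and 52.6 CPM with tetracycline, against 107, 117 and 112 CPM in controls. The log2 fold change of PSMB6 with tetracycline was -1.07 (SE 0.058, limma adjusted p = 7.47e-20).

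PSMB10, which replaces PSMB7, had 30.6, 35.2 and 32.4 CPM in P493-6 with MYCi975 and 63.4, 69.5 and 63.2 CPM with tetracycline, against 28.98, 30.7 and 29.8 CPM in controls. Its rise with tetracycline was 1.10 on the log2 scale (SE 0.071, limma adjusted p = 2.13e-17). PSMB7 had 123, 117 and 114 CPM with MYCi975 and 71.3, 66.3 and 75.3 CPM with tetracycline, against 121, 125 and 129 CPM in controls, a log2 fold change with tetracycline of -0.81 (limma adjusted p = 2e-16). Again the tetracycline and control libraries were fully apart for both genes. PSMB8, which replaces PSMB5, had 129.9, 135 and 117 CPM with MYCi975 and 200.1, 202 and 194 CPM with tetracycline, against 123, 123 and 126 CPM in controls. PSMB5, the subunit with chymotrypsin-like activity and the main target of bortezomib, had 62.4, 64.4 and 61.2 CPM with MYCi975 and 31.1, 30.3 and 26.8 CPM with tetracycline, against 59.8, 64.3 and 67.1 CPM in controls. The log2 fold changes with tetracycline were 0.67 for PSMB8 (limma adjusted p = 1.3e-16) and -1.09 for PSMB5 (limma adjusted p = 1.26e-16).

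In ratios of CPM within a library, PSMB9 to PSMB6 was 0.309 ± 0.0172 in P493-6 with MYCi975 and 1.58 ± 0.103 with tetracycline, against 0.251 ± 0.0221 in controls (SD, n = 3 each). PSMB10 to PSMB7 was 0.278 ± 0.0265 with MYCi975 and 0.925 ± 0.109 with tetracycline, against 0.238 ± 0.00674 in controls. PSMB8 to PSMB5 was 2.03 ± 0.104 with MYCi975 and 6.78 ± 0.412 with tetracycline, against 1.95 ± 0.0956 in controls. The size of such a ratio depends on the lengths of both genes and only its change between groups can be read. All 3 ratios were higher with tetracycline than in any control library. With MYCi975 none of the 3 immunoproteasome genes was called in P493-6, with adjusted p-values of 0.663 for PSMB8, 0.134 for PSMB9 and 0.221 for PSMB10 (limma), and 95% intervals of the log2 fold change of -0.07 to 0.14, -0.0011 to 0.32 and -0.03 to 0.29 in that order. The PSMB9 libraries with MYCi975 nevertheless all lay above the control libraries, the closest pair being 29.6 CPM with MYCi975 and 29.5 CPM in controls.

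In PC3 the immunoproteasome genes had few reads. PSMB8 had 19.7, 18.5 and 18.4 CPM with MYCi975, against 14.3, 15.9 and 14.2 CPM in controls. The groups did not overlap, and the log2 fold change was 0.33 (SE 0.087, limma adjusted p = 0.000603), the only call of a rise among the 45 members in PC3. The ratio of PSMB8 to PSMB5 was 0.158 ± 0.00544 with MYCi975 and 0.108 ± 0.0137 in controls (SD, n = 3 each), as PSMB5 fell, with 120.0, 120.1 and 119 CPM with MYCi975, against 149, 129.6 and 136 CPM in controls. PSMB10 had 2.28, 2.48 and 2.26 CPM with MYCi975, against 2.20, 1.69 and 2.96 CPM in controls, which is 26 to 39 reads a library. It was not called, with a 95% interval of -0.29 to 0.37 for the log2 fold change, so a change of that size was not detectable at this depth.

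**Figure D2:**
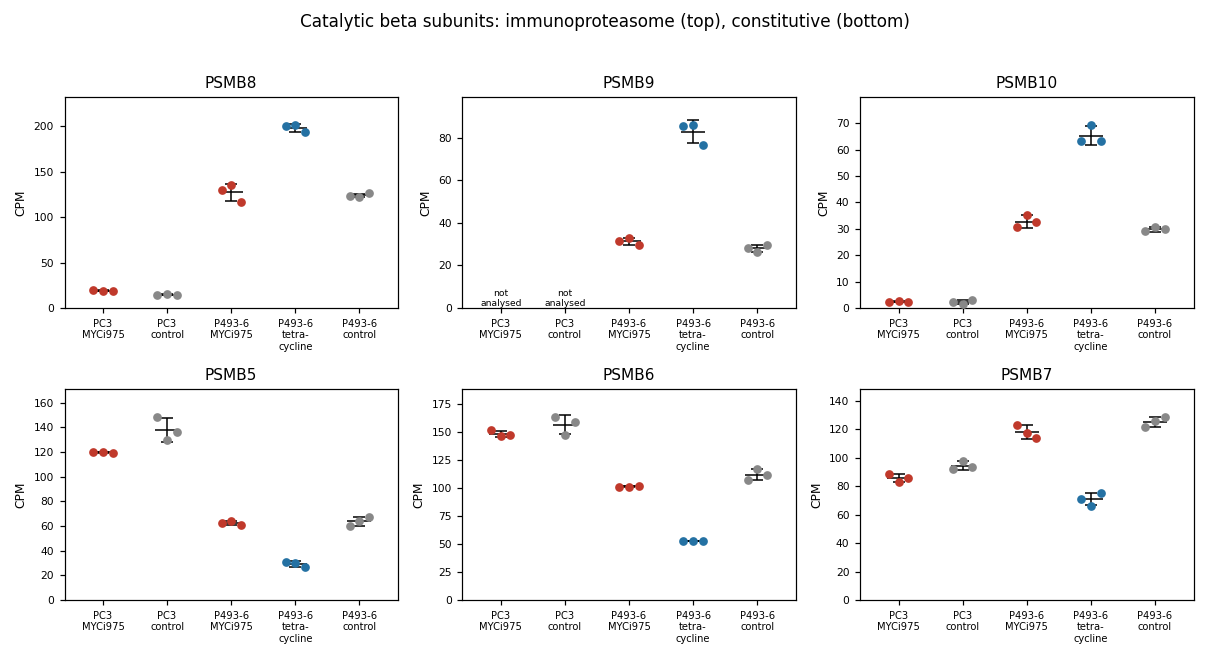
CPM of the immunoproteasome genes PSMB8, PSMB9 and PSMB10 and of the counterparts PSMB5, PSMB6 and PSMB7 in the 5 groups. Points are libraries and bars show the mean and SD of 3. With tetracycline PSMB9 lies at 76.6 to 86.1 CPM and PSMB6 at 52.3 to 52.7 CPM, against 26.3 to 29.5 and 107 to 117 CPM in P493-6 controls.

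All 6 ATPase genes, which form the unfolding ring of the regulatory particle, were lower in PC3 with MYCi975, at a median log2 fold change of -0.40. In P493-6, 5 of 6 were lower with MYCi975, at a median of -0.24, and 6 of 6 with tetracycline, at a median of -0.58. Among all genes 30.1%, 18% and 41.9% were lower in these 3 comparisons. PSMC6 had 219, 228 and 222 CPM in PC3 with MYCi975, against 301, 302 and 299.7 CPM in PC3 controls. It had 63.3, 63.1 and 65.7 CPM in P493-6 with MYCi975 and 45.9, 47.4 and 45.2 CPM with tetracycline, against 85.4, 88.4 and 79.7 CPM in controls. The groups were fully apart in all 3 comparisons. PSMC2 fell most in PC3, with a log2 fold change of -0.50 (SE 0.038, limma adjusted p = 2.18e-21). PSMC5 was the ATPase gene not called in P493-6 with MYCi975, where it had 73.5, 75.3 and 71.2 CPM, against 80.8, 76.3 and 77.4 CPM in controls (limma adjusted p = 0.221).

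The non-ATPase genes encode the base and lid of the regulatory particle, which hold the ubiquitin receptors and the deubiquitinase. In PC3 with MYCi975, 10 of 11 were lower, in P493-6 with MYCi975 9 of 11, and with tetracycline 11 of 11, at a median of -1.001. The shares of all genes called lower were 30.1%, 18% and 41.9% in that order. PSMD1, the largest subunit and a scaffold of the base, had 213, 224 and 214 CPM in PC3 with MYCi975, against 334, 354 and 346 CPM in PC3 controls. In P493-6 it had 144, 146 and 159.8 CPM with MYCi975 and 97.4, 95.4 and 101 CPM with tetracycline, against 218, 216 and 213 CPM in controls. PSMD1 showed the largest falls of the constitutive genes in all 3 comparisons, equalled by PSMD6 in PC3, with log2 fold changes for MYCi975 of -0.66 in PC3 and -0.52 in P493-6, and for tetracycline of -1.13 (SE 0.033, 0.046 and 0.047 in that order, limma adjusted p = 3.88e-33, 2.58e-12 and 1.19e-23).

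PSMD12, a lid subunit, had 221, 235 and 223 CPM in PC3 with MYCi975, against 331, 357 and 352 CPM in PC3 controls. In P493-6 it had 78.6, 81.6 and 81.5 CPM with MYCi975 and 51.8, 51.8 and 50.8 CPM with tetracycline, against 118, 108 and 105 CPM in controls. No treated library reached a control library. PSMD14, the deubiquitinase of the lid, fell by 1.07 with tetracycline (limma adjusted p = 4.95e-20) on the log2 scale and by 0.48 in PC3 with MYCi975 (limma adjusted p = 8.38e-16). In P493-6 with MYCi975 it was not called, at 113, 105 and 104 CPM, against 115, 118 and 113 CPM in controls (limma adjusted p = 0.124). PSMD4, a ubiquitin receptor, changed least of this class with tetracycline, at a log2 fold change of -0.25 (limma adjusted p = 3.58e-05). PSMD2, a scaffold of the base, had 790.3, 769 and 760.4 CPM in PC3 with MYCi975, against 933, 957 and 946 CPM in PC3 controls.

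The 3 chaperones that assemble the regulatory particle, PSMD5, PSMD9 and PSMD10, were called in fewer comparisons. PSMD5 alone was called in PC3 with MYCi975, at 36.0, 32.9 and 32.5 CPM, against 45.8, 46.6 and 43.4 CPM in controls (log2 fold change -0.41, limma adjusted p = 9.2e-09). None of the 3 was called in P493-6 with MYCi975, and all 3 were lower with tetracycline, by 0.41 to 0.69 on the log2 scale. PSMC3IP, the gene that shares only the name, was lower in all 3 comparisons, at -0.50 and -0.40 with MYCi975 in PC3 and P493-6 and -0.67 with tetracycline.

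Among the activators, the interferon-induced pair PSME1 and PSME2 rose with tetracycline, PSME3 fell and PSME4 was not called. PSME1 had 343, 309.5 and 356 CPM in P493-6 with MYCi975 and 502, 516 and 512 CPM with tetracycline, against 288, 322 and 279.8 CPM in controls. PSME2 had 131, 132 and 131 CPM with MYCi975 and 221, 217 and 219.6 CPM with tetracycline, against 136, 131 and 126 CPM in controls. The log2 fold changes with tetracycline were 0.78 for PSME1 and 0.74 for PSME2 (SE 0.043 and 0.046, limma adjusted p = 2.97e-19 and 6.65e-18). For both genes the tetracycline libraries lay above all others.

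PSME1 was also the only member called higher in P493-6 with MYCi975, at a log2 fold change of 0.18 (SE 0.050, limma adjusted p = 0.00631), although its lowest library with MYCi975, at 309.5 CPM, lay below the highest control library, at 322 CPM. That call was lost without control replicate 3, at an adjusted p of 0.056, and in limma without trend and robust settings, at 0.175. PSME3 had 232, 228 and 223 CPM with MYCi975 and 126, 115 and 120.4 CPM with tetracycline, against 298, 291 and 279.8 CPM in controls. Its log2 fold change was -0.35 with MYCi975 (limma adjusted p = 1.06e-08) and -1.26 with tetracycline (limma adjusted p = 1.58e-25). The 3 groups of PSME3 did not overlap.

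PSME4 had 239, 242 and 245 CPM with MYCi975 and 253, 248 and 246 CPM with tetracycline, against 242, 232 and 244 CPM in controls. It was the only member not called with tetracycline (limma adjusted p = 0.214), while TMM scaling and the tests on whole reads called it higher, by 0.14 on the log2 scale (adjusted p = 0.00351 with TMM scaling in limma, 0.00229 in edgeR and 0.00951 in DESeq2). In PC3 with MYCi975, PSME3 fell, with 178, 174 and 171 CPM, against 231, 224 and 231 CPM in controls (log2 fold change -0.39, limma adjusted p = 2.18e-17). PSME4 fell by 0.15 on the log2 scale (limma adjusted p = 0.000379) and PSME2 by 0.17 (limma adjusted p = 0.00384), and the PSME2 call ended without MYCi975 replicate 3, at an adjusted p of 0.0556. PSME1 was not called in PC3, with 197, 187 and 199 CPM with MYCi975, against 205, 181 and 186 CPM in controls.

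**Figure D3:**
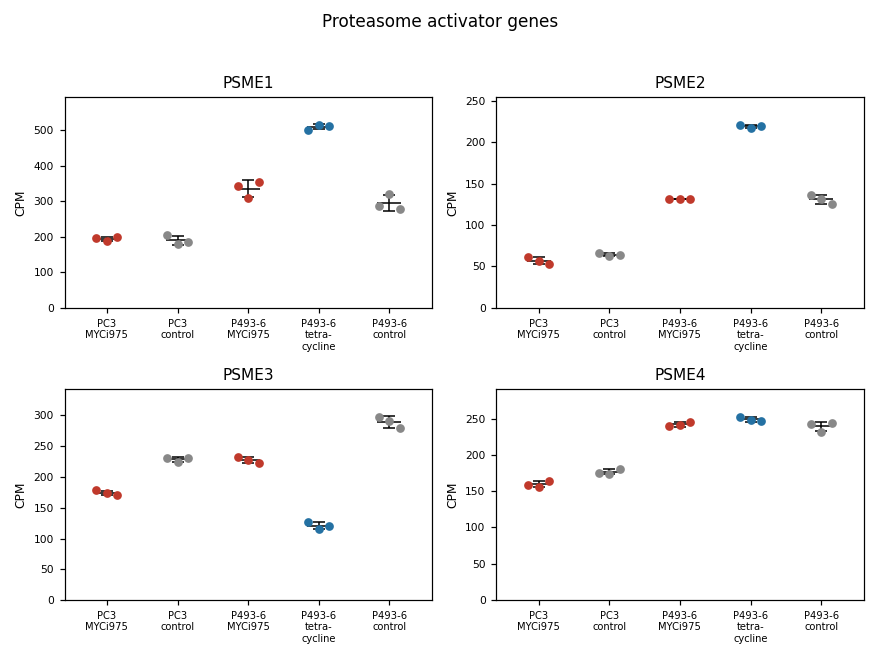
CPM of the activator genes PSME1 to PSME4 in the 5 groups. Points are libraries and bars show the mean and SD of 3. PSME1 lies at 502 to 516 CPM with tetracycline, against 279.8 to 322 CPM in P493-6 controls, and PSME3 at 115 to 126 CPM, against 279.8 to 298 CPM.

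The genes for the chaperones that build the core held the largest changes of all members, those of PSMG1 and PSMG4 with tetracycline. PSMG1, which pairs with PSMG2 to assemble the alpha ring, had 58.2, 65.9 and 54.2 CPM in P493-6 with MYCi975 and 6.66, 6.25 and 9.70 CPM with tetracycline, against 63.4, 67.9 and 70.6 CPM in controls. The tetracycline libraries held 51 to 96 reads of the gene. Its log2 fold change with tetracycline was -3.02 (SE 0.109, limma adjusted p = 1.49e-22), a ratio of mean CPM of 0.112. PSMG4 had 36.6, 36.1 and 44.4 CPM with MYCi975 and 7.80, 9.19 and 6.16 CPM with tetracycline, against 45.2, 44.3 and 39.2 CPM in controls, and its log2 fold change with tetracycline was -2.34 (SE 0.111, limma adjusted p = 1.58e-21). PSMG3, the partner of PSMG4, had 27.9, 29.9 and 28.7 CPM with MYCi975 and 10.9, 13.2 and 11.8 CPM with tetracycline, against 34.7, 35.5 and 34.8 CPM in controls. It fell in both comparisons, by 0.27 with MYCi975 (limma adjusted p = 0.00478) and by 1.48 with tetracycline (limma adjusted p = 3.66e-17) on the log2 scale.

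PSMG2 fell less than its partner PSMG1, with 24.0, 25.2 and 25.3 CPM with tetracycline, against 38.8, 35.7 and 33.3 CPM in controls (log2 fold change -0.51, limma adjusted p = 7.05e-07). The inhibitor PSMF1 had 74.8, 74.6 and 74.6 CPM with tetracycline, against 134, 132 and 131 CPM in controls (log2 fold change -0.82, limma adjusted p = 1.46e-17). Neither PSMG2 nor PSMF1 was called with MYCi975 in either line. PSMG1 was called with MYCi975 in P493-6, at -0.18 (limma adjusted p = 0.0288), and in PC3, at -0.17 (limma adjusted p = 0.0111). Both calls are weak: in P493-6 it ended in 9 of the alternatives, in 4 of these by leaving out control replicate 2 (adjusted p = 0.0925) or 3 (0.148) or MYCi975 replicate 1 (0.0928) or 3 (0.206), and in PC3 in 4, among them those without control replicate 3, at an adjusted p of 0.102, and without MYCi975 replicate 1, at 0.122. PSMG3 in PC3 was called at -0.18 (limma adjusted p = 0.00611) and was lost without control replicate 1, at 0.182, and without MYCi975 replicate 2, at 0.0519. POMP, the maturation factor of the core, was lower in all 3 comparisons, with log2 fold changes for MYCi975 of -0.23 in PC3 and -0.30 in P493-6, and for tetracycline of -0.26.

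**Figure D4:**
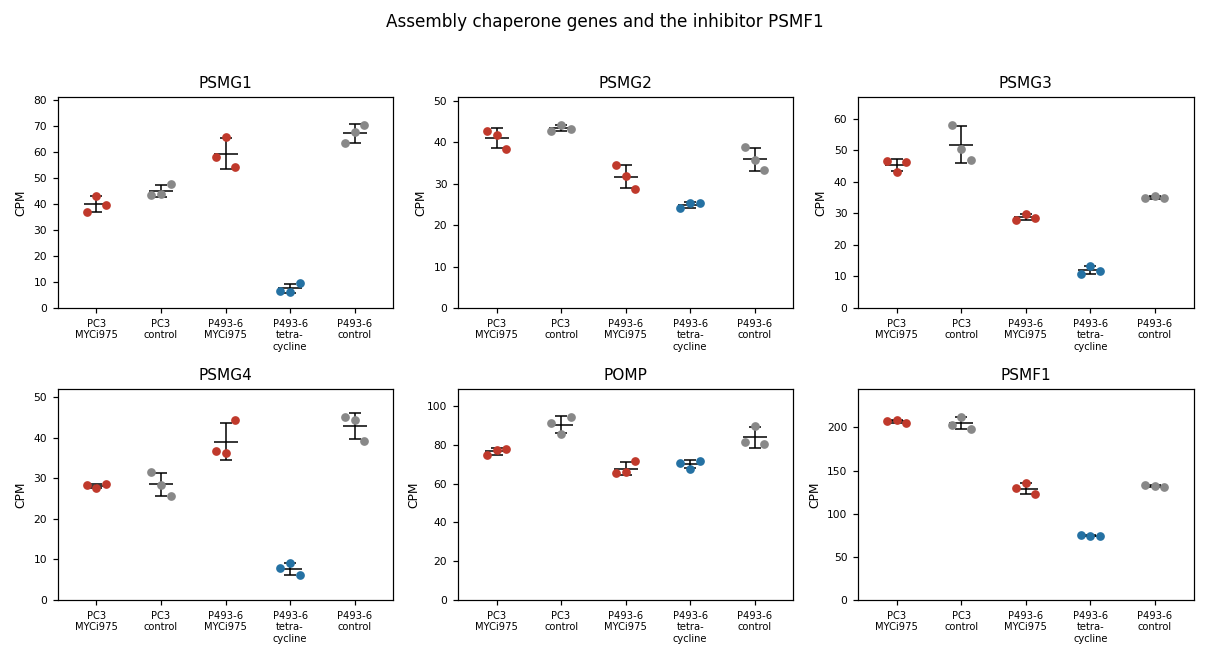
CPM of the core assembly genes PSMG1 to PSMG4, of POMP and of the inhibitor gene PSMF1 in the 5 groups. Points are libraries and bars show the mean and SD of 3. PSMG1 lies at 6.25 to 9.70 CPM with tetracycline, against 63.4 to 70.6 CPM in P493-6 controls, and at 37.0 to 43.2 CPM in PC3 with MYCi975, against 43.6 to 47.8 CPM in PC3 controls.

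MYCi975 and tetracycline were compared directly in P493-6 over 9 libraries. Of the 46 members, 38 were higher and 5 lower with MYCi975 than with tetracycline, where 76.2% of all genes were called, 42.3% higher and 33.9% lower. Under TMM scaling the excess of higher genes among all genes was gone, at 4884 higher and 4929 lower, and 35 members were higher and 6 lower. The 5 lower were the 3 immunoproteasome genes with PSME1 and PSME2. The largest differences were those of PSMG1, at 2.84 on the log2 scale, PSMG4, at 2.21, and PSMB9, at -1.37 (limma adjusted p = 2.81e-18, 1.44e-21 and 7.31e-23). Of the 30 constitutive genes 28 were higher with MYCi975, and PSMA2 and PSMB4 were not called. For 21 of the 30 the level with MYCi975 was called both higher than with tetracycline and lower than in controls. Both calls, which share the MYCi975 libraries, were passed by 11.2% of all genes.

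The change with MYCi975 was compared between the lines, at 8 µM in PC3 and 6 µM in P493-6, so line and dose cannot be told apart. Across the 44 proteasome genes measured in both lines, the log2 fold changes had r = 0.652 and Spearman's rho = 0.636, with the same sign for 39. These genes share libraries and are not independent, so no p is given. Of the members 24 were called lower in both lines, PSMC3IP among them. That is 72.73% of the 33 called lower in PC3 and 92.31% of the 26 in P493-6. Of the 11240 genes tested in both lines, 13.5% were lower in both. Over all those genes the shares were 41.8% of the genes lower in PC3 and 67.5% of those lower in P493-6. All 24 were also lower with tetracycline, a comparison that shares its control libraries with MYCi975 in P493-6, and 11.1% of all genes were lower in all 3 comparisons. In the fit with line, treatment and their interaction, the change differed for 14 of 45 members, with 12 lower in PC3 and 2 higher, where 36.3% of all genes were called, 18.2% lower and 18.1% higher. The largest of these were PSMD5, at -0.45, PSMD14, at -0.37, PSMC5, at -0.35, and PSMA4, at -0.34 on the log2 scale, all more negative in PC3 (limma adjusted p = 0.000109, 3.26e-05, 4.78e-05 and 2.98e-05). The 2 higher were PSMB8, at 0.30, which rose in PC3 and was not called in P493-6, and PSMD7, at 0.22, a lid subunit that fell in P493-6 and was not called in PC3. The count of 12 became 7 in limma without trend and robust settings and 15 under TMM scaling.

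**Figure D5:**
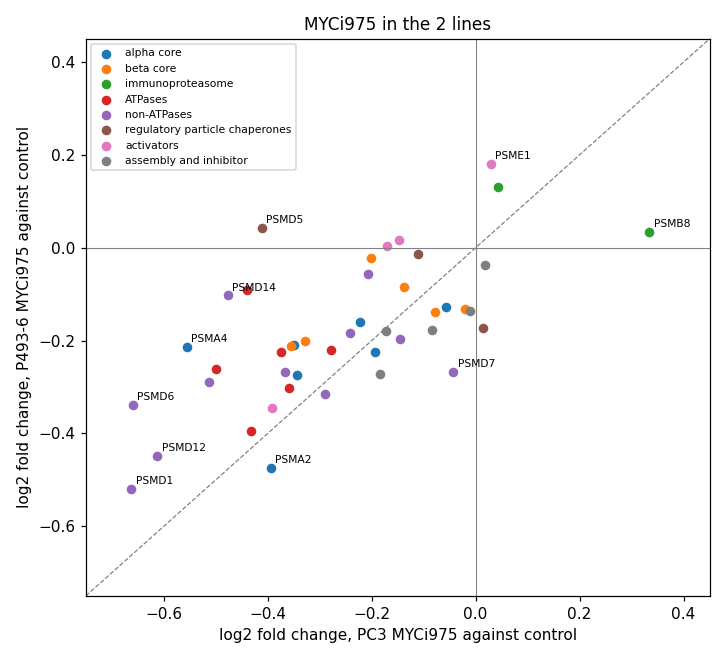
Log2 fold change with MYCi975 of each proteasome gene in PC3 (horizontal axis) and in P493-6 (vertical axis), both on log2(CPM + 1). Points are genes coloured by class. Most points lie below 0 on both axes, with PSMD1 lowest at -0.66 and -0.52, and PSMB8 is at 0.33 in PC3.

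With DMSO alone the lines differed in most proteasome genes, in both directions. Of 45 members 24 were higher and 18 lower in PC3 controls than in P493-6 controls, where 84.7% of all genes were called, 42.6% higher and 42.1% lower, and no batch of library preparation can be told apart from the line. The immunoproteasome genes and activators were the classes lower throughout in PC3. PSMB8 had 14.3, 15.9 and 14.2 CPM in PC3 controls, against 123, 123 and 126 CPM in P493-6 controls, and PSMB10 had 1.69 to 2.96 CPM in PC3 controls, against 28.98 to 30.7 CPM in P493-6 controls. The log2 differences were -2.99 for PSMB8 and -3.25 for PSMB10 (limma adjusted p = 3.41e-22 and 9.31e-17). All 4 activators were lower in PC3, from -0.34 for PSME3 to -1.02 for PSME2, and all 6 ATPases were higher, up to 1.82 for PSMC6. Among the non-ATPase genes the log2 difference was 1.98 for PSMD2 and -1.77 for PSMD3 (limma adjusted p = 2.6e-24 and 2.44e-22).

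Lists of related genes were counted beside the members. Of the regulators of proteasome genes, 8 of 9 were higher and 0 lower in PC3 with MYCi975, where 29% and 30.1% of all genes were. NFE2L1 had 319.9, 329.6 and 303 CPM with MYCi975, against 231, 235 and 233 CPM in PC3 controls. NFE2L2, the oxidative stress factor that binds the same element, had 106, 106 and 109 CPM, against 73.3, 76.8 and 77.6 CPM. The largest rise was that of MAFG, a small partner of both, at 0.97 on the log2 scale (limma adjusted p = 2.2e-36). In the same comparison 33 of 45 members were called lower, 1 higher and 11 not called. Any part of NFE2L1 and NFE2L2 in this was not tested, and only RNA was measured. In P493-6, 2 of 9 regulators were higher and 2 lower with MYCi975, where 10.6% and 18% of all genes were. With tetracycline 5 of 10 were higher and 3 lower, where 36.2% and 41.9% of all genes were. The tenth, MAFF, is listed only through its tetracycline libraries, at 3.84 to 4.66 CPM with tetracycline, against 0.409 to 0.485 CPM in controls, so its rise was set by the filter and 4 of 9 were higher without it. NFE2L1 was higher with MYCi975, at 111, 114 and 124 CPM, against 94.2, 93.0 and 83.7 CPM in controls, and not called with tetracycline (limma adjusted p = 0.262). NFE2L2 had 54.4, 58.4 and 58.8 CPM with MYCi975 and 80.8, 79.0 and 79.8 CPM with tetracycline, against 63.4, 63.7 and 63.9 CPM in controls. It fell with MYCi975, by 0.15 on the log2 scale, and rose with tetracycline, by 0.32 (limma adjusted p = 0.0473 and 4.49e-06).

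The list of immunoproteasome regulators and the peptide pathway moved with PSMB8, PSMB9 and PSMB10 in P493-6 with tetracycline, where 16 of 19 were higher and 2 lower. That is 84.2% higher and 10.5% lower, where 36.2% and 41.9% of all genes were. IRF1, an interferon regulatory factor known to act on PSMB9, had 85.6, 82.9 and 80.2 CPM with MYCi975 and 227, 232 and 235 CPM with tetracycline, against 67.5, 70.4 and 68.0 CPM in controls. NLRC5, the MHC class I activator, rose by 1.06 and TAP1, the peptide transporter, by 1.35 on the log2 scale with tetracycline (limma adjusted p = 1.17e-18 and 1.56e-24). With MYCi975, 6 of 19 were higher and 1 lower in P493-6, TAP1 at 0.39 and IRF1 at 0.27 among them (limma adjusted p = 3.95e-07 and 0.000161). That is 31.6% higher and 5.26% lower, where 10.6% and 18% of all genes were. In PC3 with MYCi975, 7 of 17 were higher and 1 lower, or 41.2% and 5.88%, where 29% and 30.1% of all genes were.

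Of the proteasome partners, 12 of 14 were lower and 1 higher with tetracycline, where 41.9% and 36.2% of all genes were. The largest falls were those of the deubiquitinases UCHL5 and USP14, which act at the regulatory particle. UCHL5 had 79.5, 82.5 and 78.0 CPM with MYCi975 and 27.2, 21.8 and 26.8 CPM with tetracycline, against 99.3, 91.4 and 89.3 CPM in controls. USP14 had 125, 138 and 134 CPM with MYCi975 and 60.6, 60.4 and 56.1 CPM with tetracycline, against 155, 156 and 160.2 CPM in controls. With MYCi975, 5 of 14 were higher and 5 lower in PC3, or 35.7% each way, near the 29% and 30.1% of all genes. In P493-6, 1 was higher and 5 lower of 14, where 10.6% and 18% of all genes were. Of the genes of ubiquitin supply and shuttling, 5 of 19 were higher and 8 lower in PC3 with MYCi975, 3 higher and 12 lower in P493-6 with MYCi975, and 6 higher and 10 lower with tetracycline. In PC3 that is 26.3% higher and 42.1% lower, and with tetracycline 31.6% and 52.6%, where 29% and 30.1%, and 36.2% and 41.9%, of all genes were. In P493-6 with MYCi975 it is 15.8% higher and 63.2% lower, where 10.6% and 18% of all genes were. SQSTM1, the autophagy receptor of ubiquitin, had 2299, 2223 and 2269 CPM in PC3 with MYCi975, against 814, 792 and 829 CPM in PC3 controls.

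Overlaps of genes limit some values. By GENCODE v29, 24 members share exon positions with another gene, 8 of them on the same strand and 20 on the opposite strand. PSMB8 and PSMB9 overlap each other on opposite strands, and PSMB9 shares its strand with PSMB8-AS1. The libraries keep strand, but the strand setting of the counting is not given in the sources used here, so reads of such pairs may not be fully separated. Pseudogenes carrying their names exist for 11 members, 13 of them for PSMC1, and values of these 11 are uncertain where reads match a copy as well.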

How the data were processed

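RNA of 15 libraries was prepared with the TruSeq RNA Access kit, a strand-specific exon capture, per the labels' protocols. STAR, HTSeq, edgeR and hg38 are named in the submitters' processing notes. Versions, annotation and strand setting are not given there. The authors deposited CPM for each gene and library, and every listed gene exceeded 1 CPM in 2 or more of its 6 libraries. Deposited beside them are log2 values (fold change and mean CPM), p-values, a score (the likelihood ratio) and marks of direction made by the authors. Whole read counts were recovered from the deposited CPM for 100% of values within a tolerance of 0.001. Library totals were 13571476 to 14146453 reads in PC3 with MYCi975 and 13174502 to 15926008 in PC3 controls, and 10016138 to 11691303 in P493-6 with MYCi975, 8162582 to 9895173 with tetracycline and 9774101 to 12212555 in P493-6 controls.

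CPM were taken to log2(CPM + 1) and fitted with limma 3.58.1 (trend and robust settings) in R 4.3.3, with Benjamini-Hochberg adjustment over all genes of a comparison. Fold changes on this scale understate the change of low genes. edgeR 4.0.16 and DESeq2 1.42.0 on whole reads, TMM scaling, other pseudocounts and filters, limma without trend and robust settings, a replicate block and the omission of each library were alternatives. On simulated data 62% of genes with a simulated log2 change of 0.5 were recovered at the size of the tetracycline comparison, and 58% at that of MYCi975 in P493-6. The simulation set the same excess spread for every gene, not estimated from these libraries, and included low genes. These shares therefore need not hold for the members. The members and gene lists were chosen with earlier results of these data known. Any member could be named. Values of each library were open to the active beta genes and their replacements, the activators, POMP, NFE2L1, NFE2L2 and the 3 called genes of a class with the largest changes. For some of these, POMP among them, the text gives only fold changes or calls, and the libraries are at most points in a figure. Levels were not compared between genes, since gene lengths were not used. Some genes of the lists are counted but not reported here by name.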

Additional observations from a re-analysis of the deposited data

Results flagged for a closer look

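The change with MYCi975 differed between PC3 and P493-6 for 14 of 45 members, by the interaction term of limma with Benjamini-Hochberg adjustment over 11240 genes. Of the 45 members 26.7% were called lower in PC3 and 4.44% higher, where 18.2% and 18.1% of all genes were. In either direction 36.3% of all genes were called, so the members were not called more often than genes at large. The dose was 8 µM in PC3 and 6 µM in P493-6, so line and dose cannot be told apart. Given as the log2 change in PC3 minus that in P493-6, the difference was -0.45 for PSMD5, -0.37 for PSMD14, -0.35 for PSMC5, -0.34 for PSMA4, -0.32 for PSMD6, -0.24 for PSMC2, -0.22 for PSMD3, -0.16 for PSMD12, -0.16 for PSME4, -0.15 for PSMD4, -0.14 for PSMA3 and -0.14 for PSMD1. It was 0.30 for PSMB8 and 0.22 for PSMD7. The adjusted p-values ran from 2.98e-05 for PSMA4 to 0.0426 for PSMD1. The calls of PSMA3, PSMD1, PSMD4 and PSMD12 ended under 9 to 10 of the alternatives each, and that of PSME4 ended in limma without trend and robust settings, at an adjusted p of 0.0516, and without P493-6 control replicate 2, at 0.0505.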

How the results depend on the processing

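No called member changed direction. The direction of the larger share among all called genes did turn under TMM scaling, in P493-6 with MYCi975 to 1819 higher and 1690 lower, against 1375 and 2338 with CPM, and in MYCi975 against tetracycline to 4884 higher and 4929 lower, against 5438 and 4356 with CPM. In P493-6 with MYCi975, 3713 genes were called, 2447 with DESeq2 and 2055 in limma without trend and robust settings. The 1 member called higher there, PSME1, became 2 with edgeR and 0 in limma without trend and robust settings, and 0 to 1 when 1 library was left out. The 12 members lower in the interaction became 7 in limma without trend and robust settings and 15 under TMM scaling, where all genes stood at 1824 higher and 2353 lower, against 2029 and 2046 with CPM. Of the values for single genes under the alternatives, 3856 kept their side of the threshold, uncalled genes that changed sign included, 38 gained a call and 109 lost one. An effect shared by replicate number was not seen. Correlations of deviations between libraries with the same number ran from -0.112 to 0.067, and with different numbers from -0.077 to 0.099. A pairing of the libraries is not excluded by this. With the replicate block, 8220 genes were called in PC3 with MYCi975, 3274 in P493-6 with MYCi975, 10655 with tetracycline and 3828 in the interaction, and members lower were 33, 25, 40 and 8 in that order. Genes with few reads, such as PSMB10 in PC3, limit what can be seen, and 3 libraries a group limit all comparisons.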
